A study of Mus musculus with 4 samples.

Results

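The 6 genes described are markers that have been used to find stem cells among mammary basal cells, namely the receptors Lgr4, Lgr5 and Lgr6, the tetraspanin Tspan8, the lipid-presenting molecule Cd1d1 and the transcription factor Bcl11b. They were chosen by name as the listed mammary stem cell markers other than Procr, and all 6 were found among the 17630 genes of the data by their NCBI Gene numbers. The study asked how sympathetic nerve signals act on mouse mammary basal cells, the outer epithelial layer that holds the stem cell activity of the gland. RNA-seq was available for 4 libraries, 1 per condition. Basal cells were sorted as lineage-negative cells with CD24 and high CD29, either from control mice or from mice given 6-hydroxydopamine (6-OHDA), a toxin taken up by noradrenergic nerve endings, which it destroys. Colonies grown from basal cells in Matrigel were sequenced without adrenergic drugs or after culture with salbutamol, an agonist of the β2 adrenoceptor, together with phenylephrine, an agonist of the α1 adrenoceptor (SP). All 4 libraries carry the genotype WT and the same cell type label. The study's methods name female C57BL/6 mice and Actin-DsRed mice, and injection of 6-OHDA under the skin in puberty or in pregnancy. Its results also describe 6-OHDA in adult mice, and basal cells of DsRed mice given 6-OHDA for culture and transplantation. The study's text does not say which of these mice gave the sequenced cells. Colony medium held epidermal growth factor and insulin–transferrin–selenium, for about a week. Neither the age of the mice behind each library, nor the number of mice pooled, nor the unit of the SP dose was stated in the labels. The colony control was recognised by its title, which pairs with that of the SP library.

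LGR receptors bind secreted R-spondins, and the complex clears the membrane ubiquitin ligases Znrf3 and Rnf43, which would otherwise remove Frizzled receptors from the cell surface, so that a cell becomes more responsive to Wnt ligands. In several epithelia Lgr5 and Lgr6 mark stem or progenitor cells, while Lgr4 is expressed more broadly. Tspan8, Cd1d1 and Bcl11b have each been used to pick out subsets of mammary basal cells with high or quiescent stem cell activity, and Bcl11b is otherwise best known from T cell development.

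Levels are given as FPKM, fragments per kilobase of gene scaled to the total of the library, which allows genes of different length to be compared. Differences are given as log2(FPKM + 1) of the named library minus that of its reference, a scale that understates the change of genes with low values. A gene was tested where its mean FPKM over both libraries was at least 1, and was counted as higher or lower where the difference exceeded 0.3 in size, the fold threshold that a figure legend of the study pairs with an adjusted p-value, for which no counterpart is possible here. A second count was made at 1, a 2-fold change. With 1 library per condition there is no replicate check, no p-value can be given, and every difference compares libraries. All 6 genes passed the filter in all 3 comparisons. A listed gene below 1 FPKM in the lower library can pass only through the higher one, and its direction is then largely set by the filter. From the steps between low values, 1 FPKM stood for roughly 16.5 to 17.9 fragments per kilobase of transcript in each of the 4 libraries, a coarse estimate that assumes fragments of 250 bases. In bulk libraries, fewer cells expressing a gene and less RNA per cell cannot be told apart.

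The basal label was checked against marker genes. The 10 basal and myoepithelial markers summed to 11203 FPKM in sorted control cells, 10235 FPKM in sorted 6-OHDA cells, 6733 FPKM in control colonies and 14610 FPKM in SP colonies, with the basal keratin gene Krt14 the most abundant in every library. In control colonies against sorted control cells, 1 of these 10 was higher and 7 were lower, against 55.7% and 26.6% of all genes, with a median of -1.80 against 0.45. The largest falls were those of the contractile genes Myh11, from 467 to 11.2 FPKM, Mylk, from 116 to 3.33 FPKM, and Cnn1, from 515 to 30.4 FPKM. The sorted libraries also held endothelial transcripts, although the lineage antibodies in the study's methods include the endothelial protein CD31, beside CD45 and TER119. Its gene, Pecam1, was at 107 FPKM in control and 93.0 FPKM in 6-OHDA cells. The 10 endothelial markers summed to 445 and 436 FPKM there, against 20.7 and 15.9 FPKM in control and SP colonies. The 15 luminal markers summed to 1500 FPKM in sorted control cells and 2145 FPKM in control colonies, with Krt8 most abundant, at 560 and 698 FPKM. In that comparison 12 of 15 were higher and 0 lower, against 55.7% and 26.6% of all genes, with a median of 0.91 against 0.45. The largest rises were those of Elf5, from 0.63 to 22.5 FPKM, and Foxa1, from 1.42 to 15.2 FPKM, while Gata3 was at 30.6 and 26.45 FPKM. The libraries are therefore called sorted cells and colonies below, without claim to purity.

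Lgr4 (NCBI Gene 107515, chr2:109917647-110014257 on GRCm38) was at 31.7 FPKM in sorted control cells, 41.3 FPKM in sorted 6-OHDA cells, 43.4 FPKM in control colonies and 35.5 FPKM in SP colonies. It was high everywhere and the steadiest of the 6 genes, with the highest value 1.37 times the lowest. In each library it exceeded at least 85.5% of all listed genes.

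Lgr5 (14160, chr10:115450314-115587780) was at 20.1, 16.8, 48.7 and 17.7 FPKM in the same order. Control colonies stood apart with the highest level, and the other 3 libraries lay close together. The colony level without SP was 2.43 times that of sorted control cells, and the level with SP was lower by 2.76-fold, which returned it to the range of the sorted cells. Only 51 of the 11849 genes tested in colonies had a lower log2 difference than Lgr5.

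Lgr6 (329252, chr1:134983300-135105374) was at 14.9, 16.9, 30.95 and 14.5 FPKM. Control colonies were highest, as for Lgr5, and SP colonies were at the level of sorted control cells. The order of the other libraries differed from that of Lgr5. After 6-OHDA the log2 difference was 0.17 for Lgr6 and -0.25 for Lgr5. Lgr6 was 2.08-fold higher in control colonies than in sorted control cells and 2.13-fold lower with SP than without.

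The 3 receptor genes together summed to 66.6 FPKM in sorted control cells, 74.9 FPKM in sorted 6-OHDA cells, 123 FPKM in control colonies and 67.7 FPKM in SP colonies. Lgr4 made up 47.6% of that sum in sorted control cells, 55.1% after 6-OHDA, 35.2% in control colonies and 52.5% with SP. Lgr5 made up 30.1%, 22.4%, 39.6% and 26.1%. Control colonies were thus the only library of the 4 in which Lgr5 exceeded Lgr4. The share of Lgr6 moved least, between 21.4% and 25.2%.

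**Figure D1:**
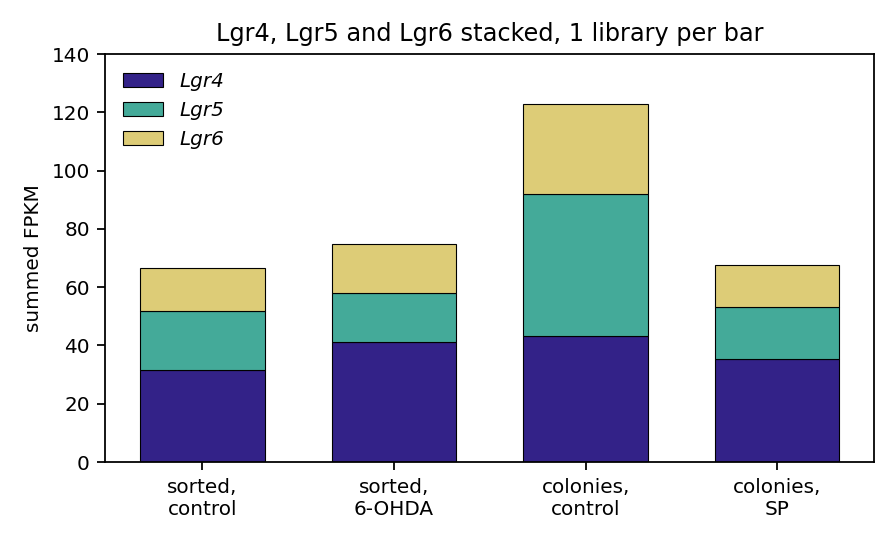
Stacked bars give the FPKM of Lgr4, Lgr5 and Lgr6 in each of the 4 libraries, 1 library per bar, on an axis that starts at 0. The bar of control colonies reaches 123 FPKM and the other 3 lie between 66.6 and 74.9 FPKM, with Lgr5 and Lgr6 making up most of the difference.

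Of the 5 other leucine-rich repeat G-protein-coupled receptors listed, 4 were in the data, the hormone receptors Lhcgr and Tshr and the relaxin family receptors Rxfp1 and Rxfp2. The highest of their values in any library was that of Tshr in sorted control cells, 0.19 FPKM. Fshr, also listed, has no value. Of the 4 R-spondin genes listed, 3 were in the data and were below 1 FPKM in each library, while Rspo2 has no value. Rspo1 was at 0.43, 0.30, 0.73 and 0.28 FPKM in sorted control cells, sorted 6-OHDA cells, control colonies and SP colonies, Rspo3 at no more than 0.29 FPKM, and Rspo4 at no more than 0.03 FPKM.

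The RNA of Znrf3 and Rnf43, the ligases that the receptor complex removes from the membrane, was not higher in control colonies with the receptors. RNA levels do not measure that removal. Znrf3 was at 5.25, 5.87, 3.19 and 2.81 FPKM in the 4 libraries. Rnf43 was at 7.98, 7.44, 6.62 and 4.76 FPKM. Both were lowest in SP colonies and below their sorted level in control colonies, where Lgr5 and Lgr6 were highest. With SP the log2 difference was -0.40 for Rnf43, lower like Lgr5 and Lgr6, and -0.14 for Znrf3.

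The Frizzled and LRP genes encode the Wnt receptors that the LGR complex spares. Of the 11 tested in colonies, 0 were higher and 4 lower with SP, against 11.7% and 19.8% of all genes, with a median of -0.20 against -0.07. Fzd9 had the largest change, from 7.60 FPKM in control colonies to 1.88 FPKM with SP (-1.58), and like Lgr5 it was lower in sorted control cells, at 1.73 FPKM. Fzd7, a Frizzled linked to mammary stem cells, was the most abundant in colonies at 84.7 FPKM without and 63.9 FPKM with SP (-0.40). In sorted cells 1 of 12 was higher after 6-OHDA, Fzd7 (0.31), and 2 were lower, Fzd9 (-0.41) and Fzd8 (-0.40), against 15.8% and 8.35% of all genes.

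Wnt target and feedback genes, which include Znrf3 and Rnf43, were listed to show what the pathway transcribes. In control colonies against sorted control cells, 3 of the 10 tested were higher and 6 lower, against 55.7% and 26.6% of all genes, with a median of -0.60 against 0.45. Axin2, a feedback inhibitor often used as a Wnt reporter, was at 6.66, 5.29, 1.53 and 1.25 FPKM in the 4 libraries, and the Dishevelled antagonist Nkd1 at 11.7, 8.70, 1.47 and 0.70 FPKM. Both were low in the colonies, whereas the related Nkd2 was at 149 FPKM in control colonies against 7.32 FPKM in sorted control cells (4.18). With SP, 0 of 10 were higher and 5 lower, against 11.7% and 19.8% of all genes, with a median of -0.31 against -0.07. Thus the higher Lgr5 and Lgr6 of control colonies stood beside lower Axin2 and Nkd1 but higher Nkd2, Wif1 (1.29) and Cd44 (0.67), and their lower values with SP stood beside lower Nkd1 (-0.54) and Nkd2 (-0.53).

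Tspan8 (216350, chr10:115816817-115849893) encodes a tetraspanin, a membrane protein that organises other surface proteins into microdomains. It was at 10.6 FPKM in sorted control cells, 11.0 FPKM in sorted 6-OHDA cells, 150.0 FPKM in control colonies and 67.1 FPKM in SP colonies. The sorted libraries were alike and low, and both colony libraries were far above them. Control colonies exceeded sorted control cells 14.2-fold, and 78 of 12244 tested genes had a larger log2 difference in that comparison. With SP the level was 2.23-fold lower, still several times that of sorted cells. It was the most abundant of the 6 genes in both colony libraries and the 4th in both sorted libraries.

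Tspan8 lies on the same chromosome as Lgr5, with 229.0 kb between the ends of the annotated genes and no protein-coding gene of RefSeq in that interval. The neighbours shared the direction of change in colonies, and in sorted 6-OHDA cells the log2 difference was -0.25 for Lgr5 and 0.06 for Tspan8. Neither passed the threshold there, and that of Tspan8 turned to -0.0019 under median ratio scaling and -0.0061 after quantile normalization. Among 27 other tetraspanin genes in the data, 9 of the 22 tested were higher and 10 lower in control colonies against sorted control cells, against 55.7% and 26.6% of all genes, with a median of -0.10 against 0.45. The largest changes there were those of Tspan17 (2.35), Tspan12 (2.07) and Tspan5 (-1.83), all smaller than that of Tspan8 (3.70). With SP, 4 of 21 were higher and 7 lower, against 11.7% and 19.8% of all genes, led by Tspan9 (1.04), Upk1b (0.86) and Tspan4 (-0.76), again smaller in size than the fall of Tspan8 (-1.15).

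Cd1d1 (12479, chr3:86995834-87012358) encodes a relative of MHC class I that presents lipids to natural killer T cells. It was at 7.12, 5.36, 23.5 and 14.5 FPKM in sorted control cells, sorted 6-OHDA cells, control colonies and SP colonies. It was lowest after 6-OHDA and highest in control colonies, and both colony libraries exceeded both sorted libraries. The log2 difference was -0.35 for 6-OHDA, -0.66 for SP and 1.60 for control colonies against sorted control cells. The difference for 6-OHDA fell short of the threshold with a pseudocount of 5 (-0.23). Its transcript shares 1193 of 1239 aligned bases (96.3%) with that of the neighbouring copy Cd1d2, which is not analysed here, so fragments from either copy may be counted for Cd1d1. The invariant partner chain B2m was at 995, 794, 618 and 553 FPKM. Like Cd1d1 it was lower after 6-OHDA (-0.32), but in control colonies it was lower than in sorted control cells (-0.69), where Cd1d1 was higher. Of the 8 genes for CD1d assembly and lipid loading tested after 6-OHDA, 1 was higher and 2 were lower, against 15.8% and 8.35% of all genes. The largest change was that of the lysosomal protease gene Ctss (-0.93), also expressed by antigen-presenting cells, from 9.16 to 4.35 FPKM. Of the same 8 in control colonies against sorted control cells, 4 were higher and 2 lower, against 55.7% and 26.6% of all genes, with a median of 0.37 against 0.45. Ctss went from 9.16 to 0.14 FPKM there.

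Since Cd1d1 is also expressed by B cells and myeloid cells, their markers are given beside it, although the lineage antibodies include CD45, which these cells carry. The 12 markers summed to 86.7 FPKM in sorted control cells and 31.9 FPKM after 6-OHDA, and to 3.95 and 5.16 FPKM in control and SP colonies. Cd74, at 73.0 and 19.5 FPKM in the sorted libraries (-1.85), carried that fall, and the other 11 summed to 13.8 and 12.5 FPKM. Of the 4 markers tested there, 0 were higher and Cd74 alone was lower, against 15.8% and 8.35% of all genes. The pan-leukocyte gene Ptprc, which encodes CD45, was at 0.77 and 0.47 FPKM in sorted cells and at 0 in both colony libraries, and the higher Cd1d1 of control colonies stood beside 8 of the 12 markers at 0, among them the macrophage markers Adgre1 and Csf1r. The part of these cells in the lower Cd1d1 of sorted 6-OHDA cells was not tested.

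Bcl11b (58208, chr12:107910403-108004145) encodes a zinc finger transcription factor that works with the NuRD chromatin complex. It was at 1.91, 1.44, 8.20 and 10.7 FPKM in the 4 libraries, in the same order as above. It was the lowest of the 6 genes in each library, below the middle of all genes in sorted cells and above it in colonies, and it was the only one of the 6 with its highest value in SP colonies. The log2 difference was 1.66 for control colonies against sorted control cells and 0.34 for SP against control colonies. The latter fell short of the threshold with a pseudocount of 5 (0.25). How many fragments stood behind its values depends on the transcript counted. With the shortest of 3 linked transcripts they were roughly 75 and 54 in sorted control and 6-OHDA cells, and with the longest roughly 258 and 187. Counting alone then gives an error of about 0.258 or 0.139 on a plain log2 ratio, which was -0.41 between these libraries. For SP against control colonies the plain ratio was 0.38 and the error about 0.105 or 0.057.

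Since Bcl11b is also a gene of T cells, their markers are given beside it, although T cells carry CD45 and so fall under the lineage gate too. The T cell receptor complex genes Cd3d, Cd3e and Cd3g were at no more than 0.31 FPKM in sorted cells and at 0 in both colony libraries, and 8 of the 12 T cell markers were at 0 in each colony library. The 12 markers summed to 37.1, 36.4, 20.7 and 17.4 FPKM, most of it from Tcf7, at 29.3, 31.1, 18.7 and 15.8 FPKM, which is also a Wnt pathway gene. Lck was at 5.88, 3.93, 1.85 and 1.52 FPKM. The part of T cells in the levels of Bcl11b was not tested.

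Its close relative Bcl11a, a factor of luminal progenitors, behaved differently with SP. Bcl11a was at 0.53, 0.87, 7.67 and 2.60 FPKM. Both relatives were higher in control colonies than in sorted cells, but with SP the log2 difference was -1.27 for Bcl11a and 0.34 for Bcl11b. Of the 14 genes of the list with Bcl11a and the NuRD subunits, 0 were higher and 2 lower with SP, against 11.7% and 19.8% of all genes, with a median of -0.11 against -0.07.

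**Figure D2:**
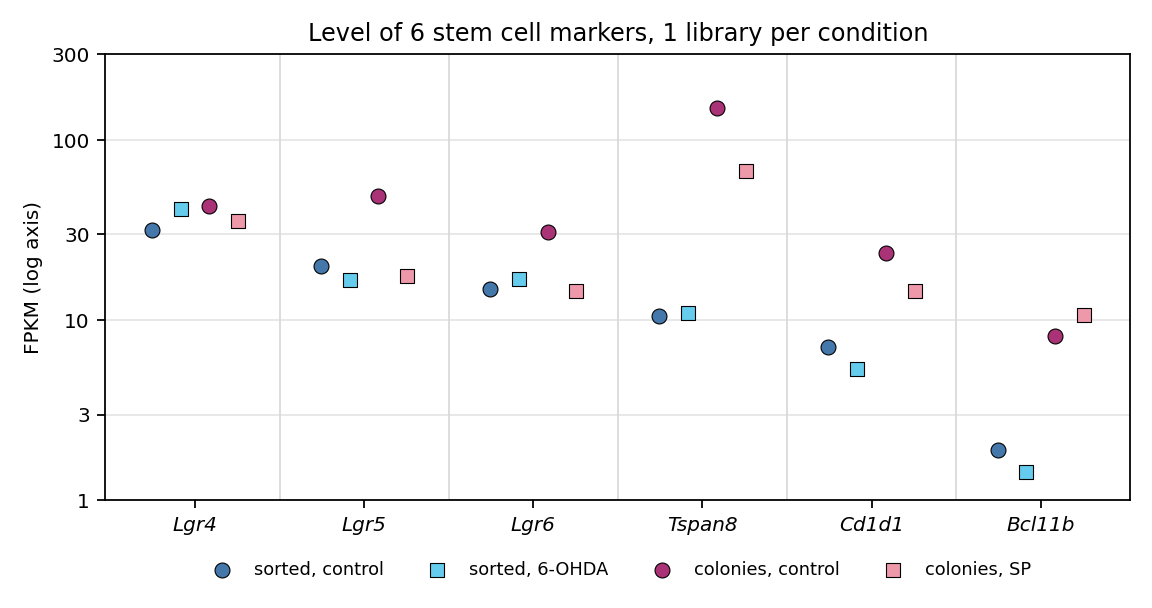
Each point is the FPKM of a gene in 1 library, on a log axis, with circles for the controls, squares for 6-OHDA or SP, blue for sorted cells and red for colonies. Tspan8 spans the widest range, from 10.6 to 150.0 FPKM, Lgr4 the narrowest, from 31.7 to 43.4 FPKM, and Bcl11b is the only gene whose SP colonies lie above control colonies.

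The comparison of sorted cells asked what loss of sympathetic nerve endings changes in basal cells. Of the 6 genes, 1 was higher after 6-OHDA, Lgr4 (0.37), against 15.8% of all 11749 genes tested, and 1 was lower, Cd1d1 (-0.35), against 8.35%. At the threshold of 1, 0 of 6 were higher and 0 lower, against 1.05% and 0.902% of all genes. The other 4 differences were 0.17 for Lgr6, 0.06 for Tspan8 (-0.0061 after quantile normalization), -0.25 for Lgr5 and -0.25 for Bcl11b. The 6 genes lay on either side of the median of all genes, which was 0.06, and their own median was -0.10. On a plain log2 ratio, which was 0.38 for Lgr4 and -0.41 for Cd1d1, counting alone gives an error of roughly 0.038 and 0.155, while the spread between mice was not measured. All 6 values were within the 5th to 95th percentile of tested genes, -0.39 to 0.50. Of all calls in this comparison 65.4% were higher, a share that became 50.4% when libraries were scaled by the median ratio and 47.3% after quantile normalization. It became 58.9% with libraries rescaled to the same sum, but 69.6% when the salivary gland genes described below were left out of that sum. Under median ratio scaling Lgr4 was at 0.31 and Lgr5 at -0.30, just past the threshold, and after quantile normalization Bcl11b was at -0.36. With a pseudocount of 5 Cd1d1 was at -0.23 and no longer counted.

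Beside these small differences, transcripts of salivary gland secretory genes made up 3.05% of all FPKM in the 6-OHDA library. The 12 genes of that list in the data summed to 15760 FPKM there and to 6.30 FPKM in sorted control cells, led by Bpifa2 at 7277 and 0 FPKM. With both libraries rescaled to the same sum without these genes, Lgr4 was at 0.39 and Cd1d1 at -0.34, each still past 0.3. The 10 fibroblast markers summed to 893 FPKM in sorted control and 1075 FPKM in 6-OHDA cells, with Postn, at 702 and 688 FPKM, the most abundant in both. The other 9 summed to 191 and 388 FPKM. Of the 10, 6 were higher and 0 lower, against 15.8% and 8.35% of all genes, with a median of 0.53 against 0.06. They were led by Col3a1 (18.3 to 91.7 FPKM), Col1a1 (14.0 to 55.4 FPKM) and Col1a2 (21.4 to 71.1 FPKM). Adipocyte markers summed to 219 and 388 FPKM, mostly from Fabp4, with 3 of 4 tested higher and 0 lower, against the same shares. Of 14 luminal markers tested 1 was higher and 5 were lower, against 15.8% and 8.35%, with a median of -0.13 against 0.06. Luminal cells are set apart by low CD29 in the study. The 15 luminal markers summed to 1500 FPKM in sorted control cells and 1339 FPKM in sorted 6-OHDA cells. The part of any of the cell types named here in the differences of the 6 genes was not tested. The study's own marker Procr, a receptor for protein C, was at 253 FPKM in sorted control cells and 191 FPKM after 6-OHDA (-0.41), several times the level of any of the 6 genes. Of the 20 other genes tied to mammary stem cells, Procr among them, 4 were higher and 1 lower, against 15.8% and 8.35% of all genes, with a median of 0.11 against 0.06.

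The comparison of colonies asked what adrenergic agonists change in cultured basal cells. With SP, 4 of the 6 genes were lower, Lgr5 (-1.41), Tspan8 (-1.15), Lgr6 (-1.04) and Cd1d1 (-0.66), against 19.8% of all 11849 genes tested, and 1 was higher, Bcl11b (0.34), against 11.7%. At the threshold of 1, 3 of 6 were lower and 0 higher, against 1.33% and 2.0% of all genes, but Lgr6 fell short of it under median ratio scaling (-0.98) and quantile normalization (-0.99). Lgr4 (-0.28) lay short of the threshold but passed it with libraries rescaled to the same sum, with or without salivary gland genes (-0.31), so that 5 of 6 were lower there. With a pseudocount of 5 Bcl11b was at 0.25 and 0 of 6 were higher. The median of the 6 genes, which ran from -1.41 to 0.34, was -0.85, against -0.07 for all genes. Single genes had a 5th to 95th percentile of -0.61 to 0.60, and Lgr5, Lgr6, Tspan8 and Cd1d1 each lay below it. Of all calls 37.1% were higher, against 49.8% under median ratio scaling, 47.2% after quantile normalization and 32.9% with libraries rescaled to the same sum. The differences of Lgr5, Lgr6 and Tspan8 were at -0.88 or below under each scaling and pseudocount tried.

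Other marker lists moved in the same pair of libraries. Of the 10 basal markers 7 were higher with SP and 1 lower, against 11.7% and 19.8% of all genes, with a median of 0.86 against -0.07, led by the keratins Krt17 (1.38), Krt5 (1.28) and Krt14 (1.07). The lower Lgr5, Lgr6 and Tspan8 thus stood beside higher basal keratins, and Procr was at 3.35 FPKM in control and 6.55 FPKM in SP colonies (0.80). Of 17 other genes tied to mammary stem cells and tested, Procr among them, 5 were higher and 2 lower, against the same shares, with a median of 0.19 against -0.07, led by Procr, Trp63 (0.79) and Met (0.77). Of the 15 luminal markers 0 were higher and 7 lower, against 11.7% and 19.8% of all genes, with a median of -0.18 against -0.07. They were led by Cited1 (-1.45), Foxa1 (-0.80) and Aldh1a3 (-0.71), while their sum, 2145 and 1992 FPKM, had Krt8 as its most abundant member, at 698 and 683 FPKM. Of 8 squamous differentiation genes tested 8 were higher, against 11.7% of all genes. Among them Krt1, at 0.43 and 1.99 FPKM, passed the filter only through SP colonies. The 11 in the data summed to 102 FPKM in control and 756 FPKM in SP colonies, led by Krtdap at 29.5 and 528 FPKM. Of 7 fibroblast markers tested 0 were higher and 6 lower, against 11.7% and 19.8% of all genes, with a median of -0.98 against -0.07. Some of the 6, among them Col3a1 (2.33 and 0.46 FPKM), passed the filter only through control colonies, so this count is not independent of the filter. The 10 summed to 2417 and 1018 FPKM, nearly all from Postn, and the other 9 to 41.7 and 13.3 FPKM, with Dpt and Fap at 0 in SP colonies. Adipocyte markers summed to 44.7 and 2.07 FPKM, mostly from Fabp4 at 34.4 and 1.05 FPKM, with Cidec, Plin1 and Plin4 at 0 in SP colonies. The part of any of these cells or states in the lower values of the 6 genes was not tested.

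Control colonies were set against sorted control cells to show what the 6 genes do between the gland and culture. All 6 were higher in colonies, against 55.7% of all 12244 genes tested, and 0 were lower, against 26.6%, but the rise of Lgr4 (0.44) was reversed under median ratio scaling (-0.053), and 5 of 6 were higher under each of the 4 scalings tried. At the threshold of 1, 5 of 6 were higher and 0 lower, against 30.7% and 13.2% of all genes. Under median ratio scaling Lgr5 (0.74) and Lgr6 (0.52) fell short of it, so that 3 of 6 remained. With libraries rescaled to the same sum and after quantile normalization Lgr6 alone fell short, at 0.83 and 0.73. With a pseudocount of 5 both Bcl11b (0.93) and Lgr6 (0.86) fell short. The median of all genes was itself 0.45 in this comparison, and it moved to -0.02 under median ratio scaling, 0.28 with libraries rescaled to the same sum and 0.11 after quantile normalization. The share of calls that were higher moved with it, from 67.7% to 49.5% under median ratio scaling, 61.6% with the same sum and 54.3% after quantile normalization. Relative to the median of all genes, the differences were 3.25 for Tspan8, 1.21 for Bcl11b, 1.14 for Cd1d1, 0.79 for Lgr5, 0.56 for Lgr6 and -0.01 for Lgr4. Tspan8 alone lay outside the 5th to 95th percentile of all genes, -2.10 to 2.16. Lgr4 sat in the middle of all genes, with 49.6% of them below it.

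The sorted cells and the colonies differ in culture, in the preparation and possibly in the mice used, and these cannot be told apart. Procr went the other way from the 6 genes, from 253 FPKM in sorted control cells to 3.35 FPKM in control colonies (-5.87). The 10 endothelial markers fell as well, from 445 to 20.7 FPKM summed, and the part of endothelial cells in the fall of Procr was not tested. Of 19 other genes tied to mammary stem cells and tested here, Procr among them, 5 were higher and 10 lower, against 55.7% and 26.6% of all genes, with a median of -0.55 against 0.45, led by Cdh5 (-6.14), an endothelial gene as well, Procr and Thy1 (-2.44). Against the same shares, all 10 endothelial and 7 of 10 basal markers were lower, and 12 of 15 luminal markers were higher, led by Elf5 (3.85), Foxa1 (2.74) and Prom1 (2.21). From sorted control cells to control colonies the Schwann cell markers summed to 138 and 29.5 FPKM, and the squamous differentiation genes to 37.8 and 102 FPKM. The 9 fibroblast markers other than Postn summed to 191 and 41.7 FPKM, while Postn went from 702 to 2376 FPKM. The part of any of these cell types or states in the higher levels of the 6 genes was not tested. Control colonies enter the SP comparison and sorted control cells enter the 6-OHDA comparison, so a high value in control colonies raises a gene in culture and lowers it with SP at once. Side by side, the differences in culture and with SP were 3.70 and -1.15 for Tspan8, 1.24 and -1.41 for Lgr5, and 1.01 and -1.04 for Lgr6.

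**Figure D3:**
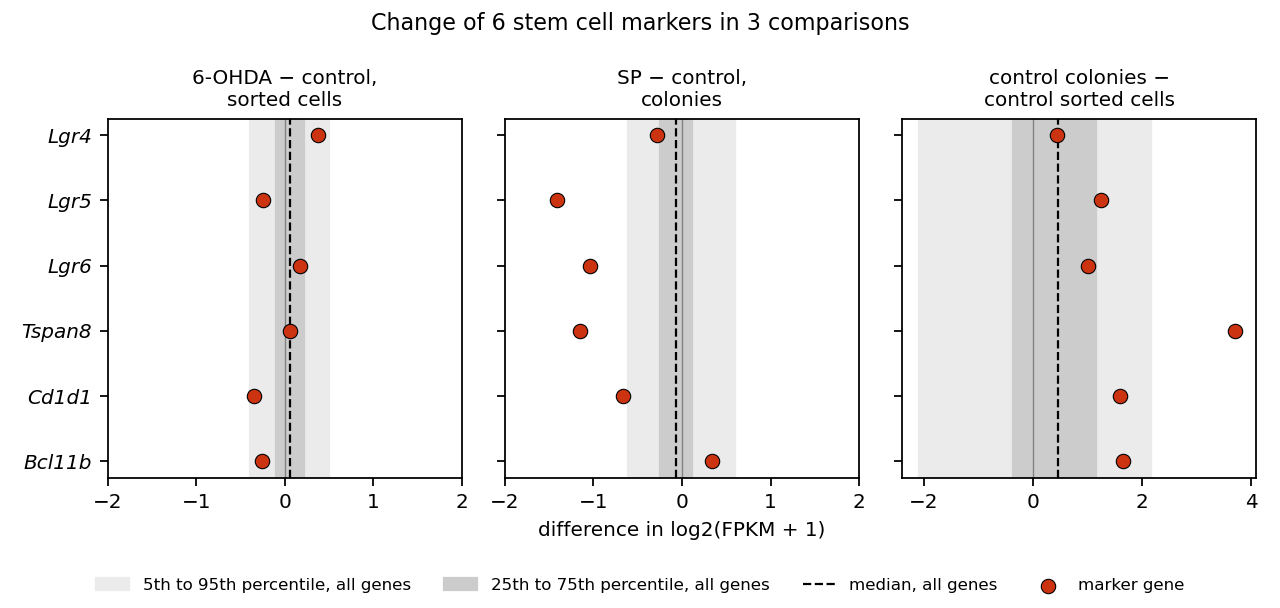
Points give the difference in log2(FPKM + 1) of each gene in the 3 comparisons, over bands for the 25th to 75th and the 5th to 95th percentile of all genes tested and a dashed line at their median. Lgr5, Lgr6, Tspan8 and Cd1d1 lie below the wider band with SP, all 6 lie within it after 6-OHDA, and Lgr4 lies on the median of 0.45 in culture, where its rise of 0.44 is reversed under median ratio scaling (-0.053).

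Likeness of pattern was measured over the 4 libraries as the root mean square difference of log2(FPKM + 1) after each gene was centred on its own mean, among 12281 other genes. Nearest to Lgr5 were Fam20a, Brinp1 and Igfbp5, the last a secreted IGF-binding protein at 560, 457, 1142 and 431 FPKM. Only 42 genes lay within 0.25 of Lgr5, and Lgr6 was among them, at 0.23, with 32 genes closer. Nearest to Lgr6 were Upk3a, Bex2 and Tril, with 308 genes within 0.25.

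Tspan8 had 12 genes within the same distance, with the milk fat globule gene Btn1a1 nearest, at 0.74, 0.64, 17.2 and 7.46 FPKM, then Lce1g and H4c9. Lgr4, the flattest of the 6, had 2684, and the nearest were Nbeal1, Acd and Thsd1. Cd1d1 was nearest to Podxl2, Dpp7 and Fndc10, with 511 within 0.25. Bcl11b was nearest to Megf9, Endod1 and Zfp524, with 452. Genes were centred but not scaled, so these counts depend on the size of a gene's changes as well as on their shape. Of the 6, the wide range of Tspan8 went with the fewest near genes and the narrow range of Lgr4 with the most. With 4 libraries such likeness is a description only.

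Promoter sequence was looked at because Lgr5, Lgr6 and Tspan8 moved together with SP and because LGR receptors act in the Wnt pathway. RefSeq promoters of GRCm38.p6 were found for 4 of the 6 genes, Lgr4, Lgr6, Tspan8 and Bcl11b, and not for Lgr5 and Cd1d1. The 250 bases before the start were searched on both strands for CTTTGA, the core read by TCF and LEF factors, which 4544 of 32851 promoters (13.8%) hold. It was found in that of Bcl11b, at position -89 counted from the start, and not in those of Lgr4, Lgr6 and Tspan8. The octamer ATGCAAAT, read by POU factors and not overlapping the core, was looked for after the sequences had been seen. It was found in the promoters of Tspan8, at -195, and of Lgr4, at -49 on the other strand as ATTTGCAT, while 526 of 32851 promoters (1.6%) hold it on either strand. The 4 sequences below are written 5′ to 3′ in the direction of transcription, with either motif in capitals. Those of Tspan8 (chr10:115817034-115817270, plus strand), Lgr4 (chr2:109917397-109917646, plus strand) and Lgr6 (chr1:135105375-135105526, minus strand) stop before the nearest annotated exon. That of Bcl11b (chr12:108003486-108003515, minus strand) is the core with 12 bases on each side. The stretches of Lgr4 and Lgr6 lie upstream of the gene. Those of Tspan8 and Bcl11b lie within the span of the annotated gene, which starts further upstream.
Tspan8: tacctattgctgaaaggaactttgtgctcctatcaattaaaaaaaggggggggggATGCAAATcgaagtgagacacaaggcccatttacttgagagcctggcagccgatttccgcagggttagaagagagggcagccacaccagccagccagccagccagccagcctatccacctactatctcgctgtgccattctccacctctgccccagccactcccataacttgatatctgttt
Lgr4: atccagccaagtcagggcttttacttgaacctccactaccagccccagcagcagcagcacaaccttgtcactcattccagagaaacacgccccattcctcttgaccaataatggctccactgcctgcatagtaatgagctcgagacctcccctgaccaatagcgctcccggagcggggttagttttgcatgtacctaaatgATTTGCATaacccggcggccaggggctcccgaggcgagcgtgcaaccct
Lgr6: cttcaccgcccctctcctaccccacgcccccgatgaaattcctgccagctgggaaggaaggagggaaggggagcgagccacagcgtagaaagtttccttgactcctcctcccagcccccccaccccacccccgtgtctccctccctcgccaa
Bcl11b: agaggccaagcaCTTTGAagaagtgtgaga
The promoters of Tspan8 and Lgr4 thus share the octamer, a match chosen after the sequences had been seen, and Lgr6 holds neither motif in its 250 bases. The part of either motif in the levels of these genes was not tested. Such matches describe the sequence only.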

How the data were processed

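The deposited values are FPKM of 17630 genes per library, rounded to 2 decimals, for 4 libraries. The submitters' processing notes name Bowtie2, RSEM 1.3.1, DESeq2 1.4.5 and mm10, and the annotation is not given in the sources used here. FPKM divides by the total of a library, so a few very abundant genes, or a shift of most genes, moves all others. Of the gene numbers, 17512 matched the RefSeq table of GRCm38.p6 and 118 did not. The 6 genes and the gene lists were chosen with earlier results of these data known. From these values, log2(FPKM + 1) was compared between pairs of libraries in Python 3.11.15 with numpy 2.4.6 and pandas 2.3.3, without a test, for genes whose FPKM averaged at least 1 over the pair. The comparison was run on simulated 2-fold changes with an assumed noise, which checks the calculation and not the spread between libraries. Genes named besides the 6 came from the 3 members past the filter that changed most in each list and comparison. Not all of these were named. Others came from every member of lists of up to 6 genes and the most abundant gene of each cell type list. The 3 genes nearest in pattern to each of the 6 were named too, with Procr, Cd1d2 and Bcl11a. Markers at 0, Wif1 and the luminal and endothelial genes of the label check were also named. Alternatives were pseudocounts of 0.1 and 5, no filter or a mean of at least 5, 4 scalings (same sum with and without salivary gland genes, median ratio, quantile normalization) and a threshold of 1. Depth was estimated from the value steps of genes with a single transcript.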

Additional observations from a re-analysis of the deposited data

How the results depend on the processing

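The log2 differences of the 6 genes in 3 comparisons, 18 in all, were each computed under 7 alternatives (pseudocounts, scalings and the threshold of 1), which gave 126 values. Of these, 110 kept their side of the threshold (among them Tspan8 after 6-OHDA, between -0.0061 and 0.07 and so without a stable direction), 10 lost the call, 5 gained one and 1 reversed, that of Lgr4 in control colonies against sorted control cells, from 0.44 to -0.053 under median ratio scaling, as the median of all genes moved from 0.45 to -0.02. The differences with SP ran from -1.46 to -1.24 for Lgr5, -1.09 to -0.88 for Lgr6 and -1.17 to -1.08 for Tspan8. After 6-OHDA, the count of lower genes among the 6 went from 1 to 2 with a pseudocount of 0.1, median ratio scaling or quantile normalization, and to 0 with a pseudocount of 5, where Cd1d1 was at -0.23, or the threshold of 1, which also left 0 higher. With SP, 0 were higher with a pseudocount of 5, where Bcl11b was at 0.25, or the threshold of 1, and 5 were lower with both same-sum scalings, where Lgr4 was at -0.31. Over all genes, 6-OHDA gave 1857 higher and 981 lower, against 804 and 539 with a pseudocount of 5, 1066 and 639 when the mean had to reach 5 FPKM, and 123 and 106 at the threshold of 1. SP gave 2351 lower, against 1276 with a pseudocount of 5, and 237 higher and 158 lower at the threshold of 1. Control colonies against sorted cells gave 3761 higher and 1619 lower at the threshold of 1. Apart from the threshold and filter, which count fewer genes by construction, the cause was not tested. No paired analysis was possible because each condition has 1 library. In sorted cells roughly 150 to 208 fragments stood behind Cd1d1 and 206 behind Tspan8, and behind Bcl11b 54 to 75 with the shortest of its transcripts or 187 to 258 with the longest.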
